A study of Homo sapiens with 22 samples.

Results

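The regions described here are A673 distal sites that carried H3K4me1 together with H3K27me3, a pairing usually called poised. The members were chosen from the deposited peaks by position, so their A673 H3K4me1 and H3K27me3 values are given as a description, with no test. A site was an H3K4me1 peak of A673 replicate 2 on chromosomes 1 to 22 that overlapped a replicate 1 peak, lay over 2.5 kb from every start and end of a protein-coding gene, and overlapped by at least 1 bp an H3K27me3 peak in at least 1 of the 2 A673 H3K27me3 lists. Of 42268 replicate 2 peaks, 27511 overlapped replicate 1 and 24244 of those were distal. The rule kept 960 of the 24244 distal sites (3.96%, exact 95% interval 3.72% to 4.21%), and the other 23284, called sites without H3K27me3 below, served as their comparison.

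The libraries were made from 2 established cell lines, A673 and CHLA10. Both derive from Ewing sarcoma, a tumour driven by a fusion of EWSR1 with an ETS factor gene. The method was CUT&RUN, in which an antibody directs a nuclease to chromatin and the released fragments are sequenced. In A673 and in CHLA10 cells labelled shNS, H3K4me1, H3K4me3, H3K27ac and H3K27me3 were each profiled in 2 libraries. HOXD13, a homeobox transcription factor, was profiled in 1 library per line, in cells without that label, so HOXD13 and the marks were read in differently labelled cells. The labels do not say whether the libraries of a mark came from separate cultures, and the spread between them may be technical. Every one of 10 genes known as EWS-FLI1 targets had H3K4me3 within 1 kb of a gene boundary in all 4 H3K4me3 libraries, and 2 of 8 genes of other cell types did (KRT8 with MYOD1 in A673, KRT8 with EPCAM in CHLA10). H3K27ac was listed at only 1 of the 10 targets in each A673 library and at 5 in each CHLA10 library.

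H3K27me3 is written by Polycomb repressive complex 2 and marks repressed chromatin, H3K4me1 is deposited at enhancers, and H3K27ac, which sits on the same lysine as H3K27me3, marks enhancers in use. In embryonic stem cells, distal sites with H3K4me1 and H3K27me3 and no H3K27ac lie near genes of early development and can take up H3K27ac when those genes are switched on. The name poised implies that H3K27ac is missing. It was missing from the deposited lists at most members, though not at all: 676 of the 960 sites (70.4%, 67.4% to 73.3%) had neither H3K27ac nor H3K4me3 in any A673 library, and 243 (25.3%) had H3K27ac in at least 1, so poised is used here for the rule and says nothing of acetylation. Among all 24244 distal sites, 52.1% lacked both marks and 45.9% had H3K27ac in at least 1 library.

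Gene boundaries in the annotation are the outermost ones, so starts inside genes or of non-coding genes could overlap a member. RefSeq start windows, here 250 bases before to 50 after an annotated start, overlapped 17 of the 960 members (1.77%, 1.03% to 2.82%) and 2.57% of the sites without H3K27me3 (2.54% of all distal sites). The 19 windows belonged to 18 genes, 5 of them protein-coding. The 250 bases before the start are printed for 6 of these genes, to show the range from many to few CG dinucleotides at starts that members overlap. They come from RefSeq (GRCh38.p14), run 5′ to 3′ on the gene's strand, and have each CG dinucleotide, the target of DNA methylation, in capitals.
PAX6 (chr11:31809960-31810209, minus strand): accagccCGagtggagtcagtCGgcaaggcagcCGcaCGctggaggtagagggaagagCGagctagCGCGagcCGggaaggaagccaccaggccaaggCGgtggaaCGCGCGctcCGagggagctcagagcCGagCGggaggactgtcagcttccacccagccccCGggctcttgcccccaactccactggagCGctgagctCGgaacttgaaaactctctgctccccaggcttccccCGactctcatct
FMN1 (chr15:33068175-33068424, minus strand): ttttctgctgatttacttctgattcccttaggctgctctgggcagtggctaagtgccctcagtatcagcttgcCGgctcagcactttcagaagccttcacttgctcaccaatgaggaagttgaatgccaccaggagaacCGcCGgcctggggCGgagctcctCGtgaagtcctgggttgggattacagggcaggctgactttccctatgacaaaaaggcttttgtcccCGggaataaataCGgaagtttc
BCAR3 (chr1:93775387-93775636, minus strand): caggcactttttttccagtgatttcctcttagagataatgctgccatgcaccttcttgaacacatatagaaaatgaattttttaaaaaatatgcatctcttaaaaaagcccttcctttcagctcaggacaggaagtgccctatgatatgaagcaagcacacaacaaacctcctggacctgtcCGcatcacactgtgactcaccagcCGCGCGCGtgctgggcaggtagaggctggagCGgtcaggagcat
SH3D19 (chr4:151227910-151228159, minus strand): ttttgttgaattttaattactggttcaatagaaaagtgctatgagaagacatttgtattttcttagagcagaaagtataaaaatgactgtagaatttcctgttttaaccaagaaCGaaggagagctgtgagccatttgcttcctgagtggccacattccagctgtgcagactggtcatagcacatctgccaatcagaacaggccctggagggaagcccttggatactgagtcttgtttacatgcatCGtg
RMST (chr12:97464441-97464690, plus strand): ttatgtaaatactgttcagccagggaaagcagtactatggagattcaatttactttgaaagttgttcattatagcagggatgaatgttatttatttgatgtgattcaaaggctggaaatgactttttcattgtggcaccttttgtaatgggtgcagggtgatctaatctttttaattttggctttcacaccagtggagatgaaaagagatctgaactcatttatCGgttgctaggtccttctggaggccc
TMEM108-AS1 (chr3:133257122-133257371, minus strand): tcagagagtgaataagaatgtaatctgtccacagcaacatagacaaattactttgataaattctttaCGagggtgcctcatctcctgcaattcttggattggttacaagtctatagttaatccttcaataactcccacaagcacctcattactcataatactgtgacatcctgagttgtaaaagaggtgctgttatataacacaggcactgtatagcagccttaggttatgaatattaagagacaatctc
The windows differed in CG content. The PAX6 stretch held 19 CG dinucleotides at 66.4% G and C, and only 167 of its 250 bases lay within the member. The FMN1 and BCAR3 stretches lay wholly within theirs and held 7 and 6. Over all 19 windows the median was 2 CG dinucleotides, against 3 in the 661 windows that overlap sites without H3K27me3 and 11 in all 33725 windows on these chromosomes. The 8-letter sequence GGAAGGAA, a short form of the GGAA repeats that EWS-FLI1 binds, was searched on both strands. It lay in 1 of the 19 windows (PAX6, as ggaaggaa) and in 3.04% of all windows. In PAX6 it stood in the part of the stretch outside the member. The letters CAATAAA, a posterior HOX motif, searched in the same way, were in 1 of the 19 and in 3.71% of all windows.

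PAX6 encodes an eye and brain transcription factor. Its member, chr11:31808180-31810126 inside the gene, had the highest replicate 1 H3K4me3 of all members, with A673 −log10 q values of 330 and 241 beside H3K27me3 values of 11.4 and 12.0. In CHLA10 the same site had H3K4me3 (80.4 and 56.7), H3K27me3 (3.03 and 3.24) and H3K27ac (4.77 and 5.20). The member over the start of RMST, a long non-coding RNA of neural development, had no A673 H3K27ac or H3K4me3 peak and kept H3K27me3 in both CHLA10 libraries (2.70 and 2.89). The SH3D19 member had no H3K27me3 in CHLA10, and H3K27ac of 31.1 and 22.6. It met the rule by 42 bp (1.86% of the site) of a replicate 1 H3K27me3 peak of 2.38, and also had A673 H3K27ac of 4.39 in replicate 2. These are peak values of the deposited lists, in which a −log10 q of 2 is the lowest kept.

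How firmly a member met the rule varied. H3K27me3 of replicate 1 was at 674 members and of replicate 2 at 860, and both lists held it at 574 (59.8%). As shares of all distal sites, which the rule fixes, these are 2.78%, 3.55% and 2.37%. It covered 715 members wholly (74.5%), at least 50% of 139 more and less than 50% of 106. The median −log10 q of H3K27me3 at members was 3.55 in replicate 1 and 3.24 in replicate 2, where the medians over all peaks of these lists were 2.91 and 2.65. The values at the rule's edges were as follows. Among the members nearest to a gene boundary were those 2555 bp from FBXO32 and 2567 bp from BIRC7, and the nearest sites left out lay 2495 bp from CYP24A1, 2470 bp from SOX2 and 2467 bp from PAPLN. The smallest overlaps with H3K27me3 were 13, 27 and 28 bp, near GSAP, SCOC and DOCK8. Left out were sites that touched an H3K27me3 peak without overlap (near TMTC1) or missed one by 2 bp (GOLIM4) and 11 bp (DHRS7C), and 199 sites in all missed one by less than 1000 bp.

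Members were shorter and weaker H3K4me1 peaks than the other distal sites. Their median length was 843 bp, against 1133 bp at sites without H3K27me3, their median replicate 2 fold enrichment was 6.34 against 7.60, and their median −log10 q was 8.01 against 9.21. They also lay farther from genes, at a median of 56.5 kb from the nearest protein-coding boundary, against 38.1 kb. Members were inside a protein-coding gene in 457 cases (47.6%, 44.4% to 50.8%), against 59.5% of the sites without H3K27me3, and 316 (32.9%) lay over 100 kb from any boundary, against 23.6%. A longer peak has more chance to overlap any other peak, so the marks below are also given by length.

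Merging both A673 H3K27me3 lists gave 35183 domains. Each member was given to the domain it overlapped most, and 881 domains (2.504%) received a member. Those domains were long, with a median of 7.98 kb against 4.25 kb for the others, a difference the rule favours. Of the 881, 812 held 1 member, 60 held 2, 8 held 3 and 1 held 4. Members are therefore not independent of each other, and 148 of them (15.4%) shared a domain with another. The domain with 4 members, chr11:27863801-27913200, lay between BDNF, which encodes a neurotrophin, and KIF18A, a kinesin gene. CHLA10 H3K27me3 covered 48.8% of it in replicate 1 and 76.0% in replicate 2. A domain of 80.6 kb on chromosome 5 with 3 members lay over SLIT3, which encodes an axon guidance ligand. None of its members overlapped CHLA10 H3K27me3, although the peaks of that line covered 45.6% and 45.7% of the domain. The next domains, each with 3 members, lay at MECOM, a zinc finger transcription factor gene, at SLC5A12, a lactate transporter gene, and between EHF and ELF5, which encode epithelial ETS factors.

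H3K27ac, measured apart from the rule, was less frequent at members than at the other distal sites. In A673, 158 members had an H3K27ac peak in replicate 1 (16.5%) and 142 in replicate 2 (14.8%), against 34.8% and 30.4% of the sites without H3K27me3 (34.1% and 29.8% of all distal sites). Both member shares were under both shares of the other sites. The mean over libraries was 15.6% ± 1.18 at members and 32.6% ± 3.11 at the other sites (SD over the same 2 libraries). Without A673 H3K4me1 replicate 1, 1808 sites met the rule, and the means were 10.2% at those and 25.02% at the other sites. Both classes were scored on the same 2 libraries. Even taken as unpaired, 2 libraries against 2 cannot go below a 2-sided p = 0.33 by exact permutation. Regions of 1 library are not replicates, so no p-value is given here or below. Peaks in both libraries were found at 57 members (5.94%, 4.53% to 7.62%) against 18.5% of the other sites (18.0% of all). Where members did have an H3K27ac peak, its median fold enrichment was 5.29 against 6.87 in replicate 1 and 5.83 against 6.63 in replicate 2.

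The order was the same in each class of length. Among peaks under 500 bp, H3K27ac was at 5.58% ± 1.05 of 269 members and at 14.3% ± 1.26 of the other sites. From 500 to under 1500 bp the shares were 13.2% ± 1.65 of 472 members and 27.3% ± 3.31 of the others, and at 1500 bp or more 33.1% ± 0.32 of 219 members and 47.6% ± 3.73 of the others. The share rose with length in both classes. By coverage with H3K27me3, H3K27ac was at 19.8% ± 2.67 of members covered by less than 50%, 22.3% ± 2.03 of those covered by at least 50% and 13.7% ± 1.58 of those wholly covered. These groups also differ in length, with medians of 1171, 1270 and 738 bp.

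**Figure D1:**
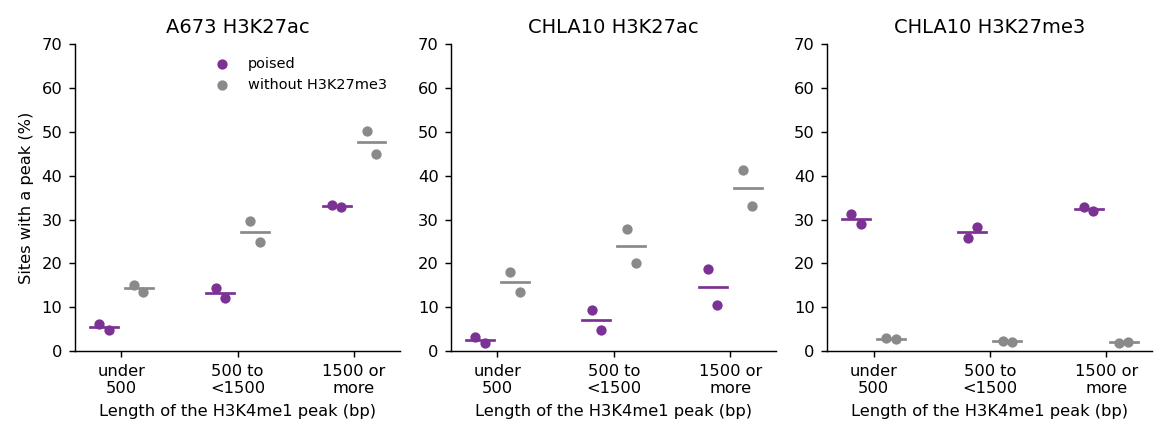
Share of A673 distal H3K4me1 sites (vertical axis, percent) with an A673 H3K27ac, CHLA10 H3K27ac or CHLA10 H3K27me3 peak, by length of the H3K4me1 peak in bp. Points are libraries and lines their means, for poised sites (purple, left) and sites without H3K27me3 (grey, right). At 1500 bp or more, A673 H3K27ac was at 33.1% of poised sites and 47.6% of the others, and the poised share was the lower in each length class for H3K27ac of both lines and the higher for CHLA10 H3K27me3.

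The strongest acetylation at members stood in 1 short stretch of the chromosome 21 short arm, where the 45S ribosomal RNA genes RNA45SN1, RNA45SN2 and RNA45SN3 are annotated. It held 6 members and 10 sites without H3K27me3, and the members lay 6.77 to 22.4 kb from a 45S gene. The members were H3K27ac-positive in both A673 libraries, and chr21:8232463-8238199 had −log10 q values of 769 and 503, where the highest value at any of the other 954 members was 67.7 in replicate 1 and 58.5 in replicate 2. The 6 also had CHLA10 H3K27me3 in both libraries, with values of 54.0 to 85.6. They had no CHLA10 H3K27ac and no HOXD13 peak in either line. Neighbours among them had equal CHLA10 H3K27me3 values, such as 81.0 and 84.7 at both chr21:8232463-8238199 and chr21:8241639-8244069, so they are not 6 independent observations. The ribosomal RNA genes exist in many near-identical copies, and how reads were assigned among them was not tested. Without the 6, H3K27ac in both A673 libraries was at 51 of 954 members. The same stretch supplied 4 of the 10 members with the strongest H3K4me1. The other 6 lay by PAMR1 (chr11:35545504-35550844, −log10 q 66.7, and chr11:35522523-35525998, 37.6), S100A10 (48.7), LHX3 (48.7), IQGAP2 (43.2) and PRR5L (33.7). PAMR1 encodes a secreted protein of regenerating muscle, S100A10 a membrane-associated annexin partner, and LHX3 a homeobox factor of pituitary and motor neurons.

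Over all lengths, A673 H3K4me3 shares had no fixed order between members and the other sites. The mark was at 58 (6.04%) and 44 (4.58%) members, against 5.39% and 5.69% of the sites without H3K27me3 (5.41% and 5.64% of all), so the order of the classes differed between the libraries. By length the order was mixed under 500 bp only (2.97% and 1.86% of members, 2.58% and 2.41% of the others). From 500 to under 1500 bp members were higher in both libraries (5.08% and 3.60% against 3.24% and 3.38%). At 1500 bp or more they were again higher (11.9% and 10.05% against 9.30% and 10.02%). In each length class the exact intervals of members and others overlapped. Peaks in both libraries were at 34 members (3.54%) and at 3.67% of the others (3.67% of all). Of those 34 members, 14 lay within 2.5 kb of a RefSeq start window (41.2%, 24.6% to 59.3%), as did 308 of the 855 other sites with such H3K4me3 (36.0%, 32.8% to 39.3%) and 7.99% of the members without it. By replicate 1, the 5 strongest of the 34 were inside PAX6, LMO2, BDNF, FIGN and VCAN. LMO2, a cofactor gene of blood formation, had a member at chr11:33866940-33868792 with H3K4me3 of 278 and 290 and H3K27ac of 13.6 and 5.95 in A673. In CHLA10 it had H3K27me3 of 4.02 and 2.91 and H3K4me3 of 42.5 in replicate 2 only. The BDNF member at chr11:27695588-27699443 likewise paired A673 H3K4me3 of 268 and 207 with H3K27me3 in both lines. The FIGN member, in a gene for a microtubule-severing enzyme, had A673 H3K4me3 of 200.1 and 141 and no peak of any mark in CHLA10. VCAN, which encodes the matrix proteoglycan versican, had a member of 351 bp with A673 H3K4me3 of 144 and 96.0.

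The shares of all marks were also taken over the 872 members that lay over 2.5 kb from every RefSeq start window. There A673 H3K27ac was at 16.6% and 15.8% of members, against 34.7% and 30.1% of the sites without H3K27me3. CHLA10 H3K27me3 was at 28.1% of these members in each library, against 2.27% and 2.31%. For both marks the order of the classes was the same away from annotated starts.

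**Figure D2:**
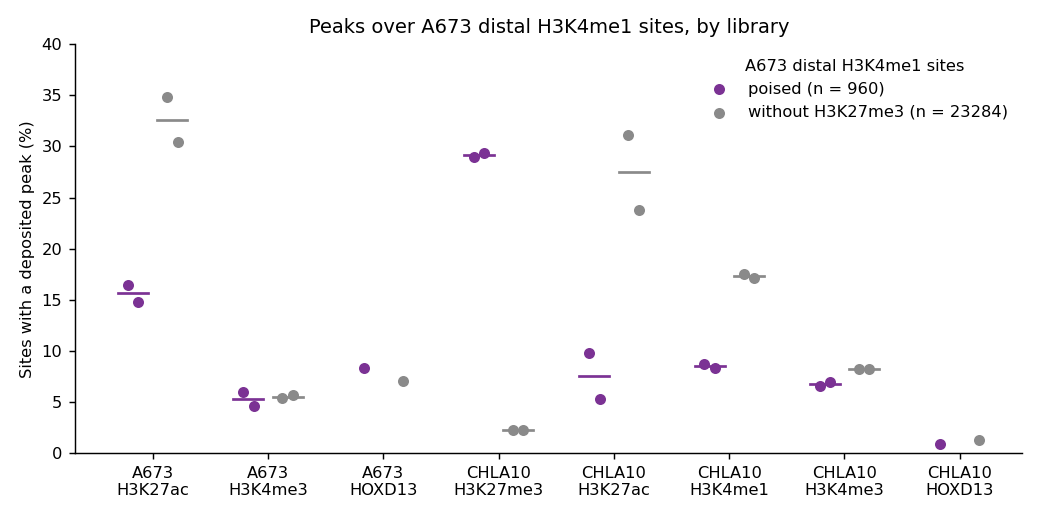
Share of A673 distal H3K4me1 sites (vertical axis, percent) that overlap a deposited peak of each mark or of HOXD13 in A673 and CHLA10. Points are libraries and lines the mean of 2, for 960 poised sites (purple, left) and 23284 sites without H3K27me3 (grey, right), and HOXD13 has 1 library per line. CHLA10 H3K27me3 was at 29.0% and 29.4% of poised sites and 2.28% and 2.29% of the others, while H3K27ac and CHLA10 H3K4me1 were lower at poised sites in both libraries.

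In the second line, H3K27me3 was the mark that set members most apart. CHLA10 H3K27me3 was at 278 members in replicate 1 (29.0%, 26.1% to 31.9%) and 282 in replicate 2 (29.4%), against 2.28% and 2.29% of the sites without it in A673 (3.34% and 3.37% of all distal sites). The mean was 29.2% ± 0.29 at members and 2.29% ± 0.0091 at the others. It was in both lists at 211 members (21.98%), against 1.36% (2.18% of all), and in at least 1 at 349 (36.4%), against 3.21% (4.52% of all). The CHLA10 share varied with the A673 peak. Members with H3K27me3 in both A673 lists had CHLA10 H3K27me3 in 36.4% ± 0.99 of cases and those with it in 1 list in 18.4% ± 2.20. Ranked by A673 H3K27me3 fold enrichment, the 320 lowest members (up to 3.84-fold) had CHLA10 H3K27me3 in 20.2% ± 0.22 of cases, the 320 middle ones in 24.7% ± 1.33 and the 320 highest (4.57-fold or more) in 42.7% ± 0.66. Ranked by the length of their domain, the shares were 22.8% (equal in both libraries), 29.5% ± 0.66 and 35.2% ± 0.22. Members covered by less than 50% had it in 15.1% of cases, equal in both libraries, and wholly covered members in 32.9% ± 0.59. It was also more frequent between genes (34.1% ± 1.27 of 503 members) than inside them (23.7% ± 2.01 of 457).

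The A673 H3K27me3 rank did not order the other marks alike. From the lowest to the highest 320, A673 H3K4me3 was at 2.34% ± 0.66, 2.81% ± 0.44 and 10.8% ± 1.99 of members. A673 H3K27ac was at 14.8% ± 1.55, 13.0% ± 1.10 and 19.1% ± 3.09. Within each library its share was higher in the highest 320 (21.25% and 16.9%) than in the lowest 320 (15.9% and 13.75%). The highest 320 include the 6 members of the ribosomal RNA stretch, which all had H3K27ac in both A673 libraries. Shares of these groups without the 6, or by length, were not taken. CHLA10 H3K27ac was at 7.34% ± 2.87, 6.88% ± 3.54 and 8.44% ± 3.09. This SD is taken between libraries that score every group, so it does not measure differences between the groups. In replicate 1 the shares were 9.38%, 9.38% and 10.6%, and in replicate 2 they were 5.31%, 4.38% and 6.25%.

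**Figure D3:**
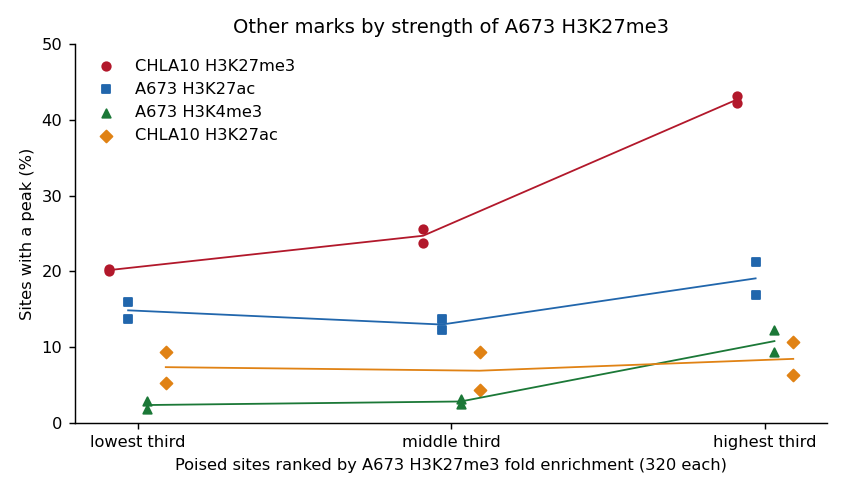
Share of poised sites (vertical axis, percent) with a peak of 4 other marks, in 3 groups of 320 sites ranked by the highest A673 H3K27me3 fold enrichment over the site. Points are libraries and lines join their means. CHLA10 H3K27me3 was at 20.2% of the lowest and 42.7% of the highest group, A673 H3K4me3 at 2.34% and 10.8%, and CHLA10 H3K27ac at 7.34% and 8.44%.

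H3K27ac and H3K4me1 of CHLA10 were less frequent at members. CHLA10 H3K27ac was at 94 members (9.79%) in replicate 1 and 51 (5.31%) in replicate 2, against 31.1% and 23.8% of the sites without H3K27me3 (30.3% and 23.1% of all). The means were 7.55% ± 3.17 at members and 27.5% ± 5.19 at the others, with a wide spread between libraries, and each member share lay under both shares of the others. CHLA10 H3K4me1, the mark that defines the sites in A673, was at 8.75% and 8.33% of members and at 17.5% and 17.2% of the others (17.2% and 16.8% of all). The CHLA10 H3K4me1 lists were short, covering 9.42 and 11.03 Mb, where the A673 lists covered 73.3 and 51.0 Mb, and what this does to the CHLA10 shares was not tested. CHLA10 H3K4me3 was at 6.56% and 6.98% of members and at 8.26% and 8.25% of the others (8.19% and 8.20% of all), but not in each length class. At 1500 bp or more it was at 12.8% and 12.3% of members and 12.5% of the others in each library, and under 500 bp at 2.60% and 4.09% of members and 3.97% and 3.65% of the others.

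By combination of CHLA10 marks, the largest class of members had none of them. No H3K4me1, H3K4me3, H3K27ac or H3K27me3 peak of CHLA10 overlapped 426 members (44.4%, 41.2% to 47.6%), against 50.5% of the other sites (50.2% of all). H3K27me3 in both lists with no H3K27ac was found at 208 members (21.7%, 19.1% to 24.4%), against 1.35% of the others (2.15% of all). The reverse, H3K27ac in both lists with no H3K27me3, was found at 32 members (3.33%, 2.29% to 4.67%), against 20.0% of the others (19.3% of all). H3K4me1 in both lists with neither H3K27 mark was at 16 members (1.67%) and at 1.65% of the others (1.65% of all), shares that differ by less than counting error. Both H3K27 marks, each in at least 1 list, were at 7 members (0.729%), against 0.0902% (0.115% of all), near S100A10, UTP25, PAX6, MYO3B, RAD21L1, PDE7B and NPVF. The other 271 members (28.2%) had other combinations, as did 26.4% of the others (26.5% of all).

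**Figure D4:**
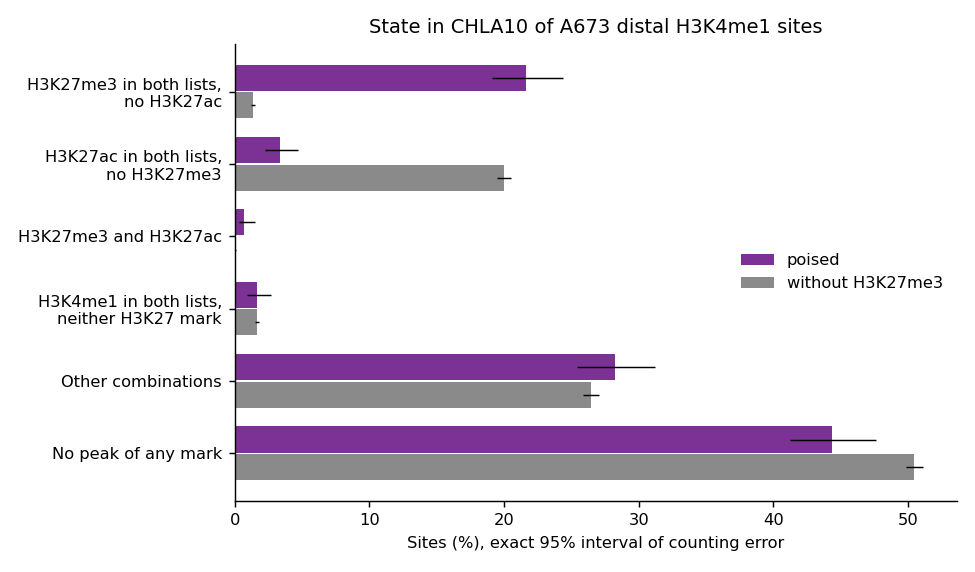
Share of A673 distal H3K4me1 sites (horizontal axis, percent) in each combination of CHLA10 marks, for poised sites (purple, upper bar) and sites without H3K27me3 (grey, lower bar). H3K27me3 and H3K27ac means at least 1 list of each, and bars on the ends are exact 95% intervals for counting error. H3K27me3 without H3K27ac was at 21.7% of poised sites and 1.35% of the others, and H3K27ac without H3K27me3 at 3.33% and 20.0%.

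Of the 32 members that were acetylated and free of H3K27me3 peaks in CHLA10, 18 had no H3K27ac peak in A673, 14 had one in at least 1 A673 list and 4 of those in both. The 10 with the strongest CHLA10 H3K27ac lay inside SH3D19, JAZF1, LDLRAD4 (a pair of sites), EBF1, MITF, BACH2, PDE1C (a pair) and HHAT. The JAZF1 member, chr7:28053754-28055137 in a zinc finger gene, had CHLA10 H3K27ac of 23.5 and 35.6 (−log10 q), and in A673 H3K27ac of 2.72 in replicate 1 only and H3K27me3 of 2.60 in replicate 2 only. EBF1 is a transcription factor gene of B cells and mesenchyme. Its member, chr5:159050543-159051008, had CHLA10 H3K27ac of 20.8 and 31.2 with H3K4me3 of 22.2 and 10.5, and A673 H3K27me3 of 2.44 in replicate 2 only. MITF, which encodes the melanocyte regulator, had a member at chr3:69770288-69771893 with CHLA10 H3K27ac of 19.4 and 9.54. It had no A673 H3K27ac and H3K27me3 in both A673 lists (2.31 and 3.38). Of the 10, 5 had A673 H3K27me3 in both lists and 5 in 1 only, and none of those A673 values was above 6.11. The pair in LDLRAD4, a gene for a TGF-beta inhibitor, and the pair in PDE1C, a phosphodiesterase gene, each shared 1 CHLA10 H3K27ac peak and 1 H3K27me3 domain, so they are 1 observation each.

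HOXD13 shares of all members and all other sites differed by less than counting error, though not among the longest peaks. The A673 library had a HOXD13 peak at 80 members (8.33%, 6.66% to 10.3%), against 7.10% of the sites without H3K27me3 (6.77% to 7.43%, 7.14% of all), and the intervals overlap. By length, A673 HOXD13 was at 4.46% of members and 2.63% of the others under 500 bp, at 5.72% and 5.33% from 500 to under 1500 bp, and at 18.7% (13.8% to 24.5%) and 11.3% (10.7% to 12.0%) at 1500 bp or more, where the intervals do not overlap. The order of the classes turned when A673 H3K4me1 replicate 1 was left out, which gave 5.31% of 1808 members and 5.38% of the others. Within members the share went with how much of the site H3K27me3 covered. HOXD13 was at 18 of 106 members covered by less than 50% (16.98%), 22 of 139 covered by at least 50% (15.8%) and 40 of 715 wholly covered ones (5.59%). As above, the wholly covered members were also the shorter ones, and the part of length in this order was not tested. In CHLA10, whose HOXD13 list was shorter, 9 members had a peak (0.94%, 0.43% to 1.77%), against 1.33% of the others (1.32% of all).

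A HOXD13 peak in both lines was found at 3 members (0.313%, 0.0645% to 0.911%), against 101 of the other sites (0.434%, 0.353% to 0.527%; 0.429% of all). The 3 differed in their other marks. The member in AUTS2, a neurodevelopmental gene, at chr7:70098323-70098521, had HOXD13 of 196 in A673 and 72.3 in CHLA10 (−log10 q) and H3K27me3 in both A673 lists (3.56 and 3.51). The member in EXOC4, an exocyst subunit gene, at chr7:133491651-133493980, had 104 in A673 and 224 in CHLA10, with A673 H3K27me3 over 28.9% of the site and no CHLA10 histone peak. The last, 23.8 kb from UTP25, had 11.2 in A673 and 55.4 in CHLA10 and carried H3K27ac in all 4 libraries. Others with strong A673 HOXD13 lay in DAB2IP (106), by TTLL7 (53.7) and by LOC124901229 (48.2). DAB2IP encodes a Ras GTPase activator, and its member was wholly covered by H3K27me3 and kept it in both CHLA10 lists (2.10 and 3.39).

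When each site was given to its nearest protein-coding gene, up to 100 kb away, 644 members fell to 509 of 19126 protein-coding genes (2.66%). Of these genes, 329 also had distal sites without H3K27me3 and 180 had members alone. Most, 406, had 1 member. FIGN had 6 (and 3 other sites), PAMR1 and MECOM had 5 each, and SLC1A2, which encodes the main glutamate transporter of astrocytes, SLC5A12 and TNFAIP3, which encodes an inhibitor of NF-kB signalling, had 4 each. ARHGEF28, DRD1 (a dopamine receptor), ADORA1 (an adenosine receptor) and ZNF521 had 3. Of the 5 PAMR1 members, 3 had CHLA10 H3K27me3 in both lists and no CHLA10 H3K27ac, and the other 2 had H3K27me3 in 1 list. The 4 TNFAIP3 members and the 3 of ARHGEF28, which share 1 domain, had no CHLA10 peak of any histone mark. DRD1 and ADORA1 each had 1 member with H3K27ac in both CHLA10 lists and no H3K27me3 there.

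Developmental transcription factor genes took a larger part, mostly through the forkhead and non-HOX homeobox lists. In 7 lists of such genes (HOX, other homeobox, PAX, SOX, forkhead, bHLH, and T-box with GATA) 245 genes were annotated, and 27 of them (11.02%) had a member, against 2.66% of all genes. Of the 263 distal sites assigned to these genes 38 were members (14.4%, 10.4% to 19.3%), against 3.49% of all assigned distal sites. Forkhead genes, whose products are winged helix factors, had the largest share, with 9 members of 24 sites (37.5%, 18.8% to 59.4%), among them 2 each at FOXL1 and FOXD2 and 1 at FOXQ1. Non-HOX homeobox genes had 16 members of 104 sites (15.4%), with 2 each at EN2, PRRX1 and MSX2. They ended in different states in CHLA10: 1 EN2 member had H3K27me3 in both lists, 1 PRRX1 member had H3K27ac in both, and neither MSX2 member had a histone peak. T-box and GATA genes had 4 members of 31 sites (12.9%, 3.63% to 29.8%). Of the 3 such genes with members, GATA6 had 2 and GATA3 had 1, each with CHLA10 H3K27me3 in both lists, while the GATA4 member had none. Among HOX genes 1 of 41, HOXA3, had a member (2.44%, close to the 2.66% of all genes), among SOX genes 1 of 17 (SOX2, with 2) and among PAX genes 2 of 9 (PAX6 with 2, PAX2 with 1). The bHLH list had 2 of 38, OLIG1 with 2 members and HAND1 with 1. Few sites were assigned to these 4 lists. Members were 9.09% of 11 HOX, 7.41% of 27 SOX, 9.38% of 32 PAX and 8.82% of 34 bHLH sites, with intervals that hold the 3.49% of all assigned sites. Each interval covers counting error only, and sites of 1 gene can share a domain.

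In the lists that follow, the exact intervals held the share over all assigned sites. Members were 5 of 67 sites of the mesenchymal and skeletal regulators (7.46%, 2.47% to 16.6%), with 2 at EBF2 and 1 each at ZEB1, MKX and EBF1, and 7 of 143 sites of axon guidance genes (4.90%), with 2 each at SEMA3E and PLXNA2. They were 3 of 64 sites of the WNT pathway (4.69%), at WIF1, SFRP1 and WNT8B, and 4 of 91 of the collagens and matrix genes (4.396%), at COL8A1, COL2A1, COL12A1 and VCAN. The BMP and TGF-beta pathway had 1 of 71 (1.41%) and the FGF and hedgehog pathway 0 of 81, which allows a share of up to 4.45%. Of genes that EWS-FLI1 activates, 1 of 62 sites was a member (1.61%), at NPY5R, and of genes that it represses 3 of 85 (3.53%), 2 at CD44 and 1 at ANXA1. Housekeeping genes (0 of 6) and genes of other cell types (0 of 13) had too few distal sites to show a share of this size.

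**Figure D5:**
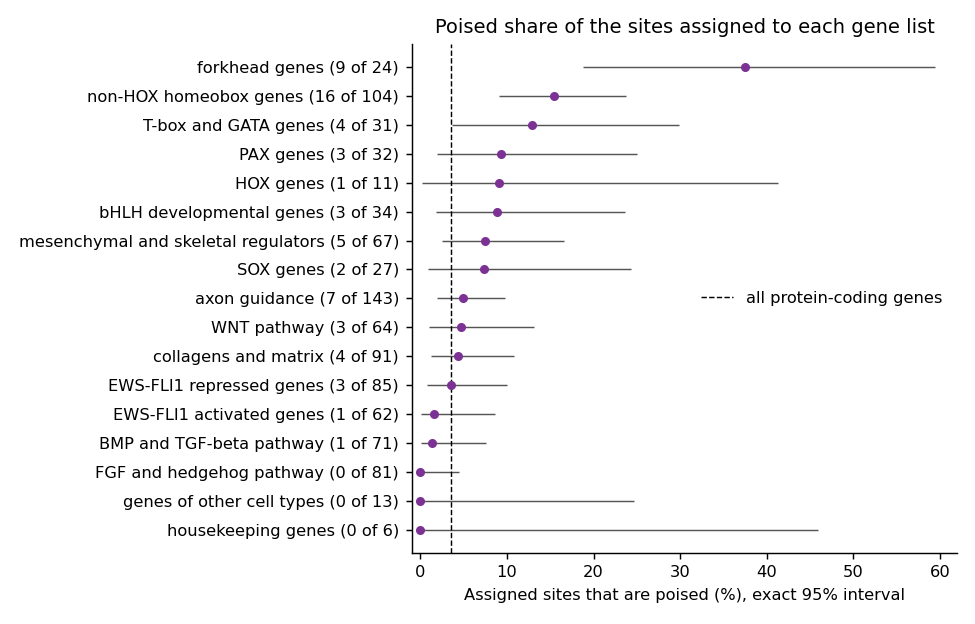
Share of the distal H3K4me1 sites assigned to each gene list that were poised (horizontal axis, percent), with the number of poised sites of all assigned sites beside each list. Points are shares, bars exact 95% intervals for counting error, and the dashed line is the share over all protein-coding genes (3.49%). The forkhead (37.5%), non-HOX homeobox (15.4%) and T-box and GATA (12.9%) lists lie to the right of the line with their whole intervals.

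The gene a member was assigned to often carried H3K27me3 at its own start. Start windows were known for the genes of 501 assigned members. A673 H3K27me3 was on them in 47.5% (replicate 1) and 55.3% (replicate 2) of cases, against 7.85% and 9.76% for sites without H3K27me3 (9.20% and 11.3% of all). This uses the lists that chose the members and is given as a description. The start lay in the member's own domain for 82 of the 501 (16.4%), and among the other 419 the shares were still 42.0% and 46.8%. H3K4me3, which the rule did not use, was on the start in 66.3% and 65.5% of cases, against 82.0% and 81.6% (81.5% and 81.1% of all). CHLA10 H3K27me3 was on it in 22.6% and 26.1%, against 4.73% and 5.01% (5.33% and 5.73% of all).

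Counted by gene, 107 of 392 genes with a member and a known start (27.3%, 22.9% to 32.0%) had H3K4me3 and H3K27me3 on it in all 4 A673 libraries of these marks. The share was 4.58% of 5439 genes with other distal sites only (6.11% of all these genes). The A673 pair uses the H3K27me3 lists that chose the members, and starts in a member's own domain were not taken out, so it is a description. In CHLA10 27 of the 392 (6.89%) had both marks in all 4, against 1.40% (1.77% of all). All 27 were among the 107. Among genes with other distal sites only, 49 of the 76 with the CHLA10 pair also had the A673 pair. The 27 include MECOM, PPARG (a factor of fat cell formation), BDNF, BCL11A, PAX6, PAX2, GATA3, FOXQ1, WT1 (a kidney development factor) and CXCR4 (a chemokine receptor). These examples were chosen after the values were seen.

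Members were unevenly spread. By chromosome the member share of distal sites ranged from 1.10% on chromosome 19 (5 of 456) to 7.64% on chromosome 11 (85 of 1113, 6.15% to 9.36%). In bins of 10 Mb, laid out after the values were seen, the median was 2 members, 62 of 289 bins had none and 19 had 10 or more. The bins from 20 to 30 and 30 to 40 Mb of chromosome 11 held 47 members of 286 distal sites (16.4%, 12.3% to 21.2%), against 3.81% elsewhere. The nearest genes there included BDNF, PAMR1, SLC5A12, SLC1A2, CD44 and PAX6. CHLA10 H3K27me3 was at 20 (42.6%) and 22 (46.8%) of these 47, against 28.3% and 28.5% of members elsewhere. The intervals overlapped in replicate 1 (28.3% to 57.8% against 25.4% to 31.3%) but not in replicate 2 (32.1% to 61.9% against 25.6% to 31.5%). They cover counting error only, and some of the 47 share a domain, as the 4 of chr11:27863801-27913200 do. The bin from 210 to 220 Mb of chromosome 1 held 20 of 105 (19.0%), 8 of them nearest to ESRRG, an orphan receptor gene, and 1 of its members kept H3K27me3 in both CHLA10 lists. On chromosome 4, from 180 to 190 Mb, 19 of 111 sites were members (17.1%), 6 of them nearest to TENM3, a neuronal adhesion gene, and 0 kept it in both.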

How the data were processed

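CUT&RUN libraries of A673 and CHLA10 were used as 18 deposited peak lists, 1 per library, and 4 IgG libraries have no list here. Per the peak names of the deposited lists, narrow peaks were called against IgG and H3K27me3 as broad peaks without a control, and per the submitters' processing notes Bowtie2, MACS2, SEACR 1.2, bedtools and hg38 were used, without the role of each. The authors give per peak a fold enrichment (a ratio over the caller's background), −log10 p and −log10 q values, and a score derived from q. Peak numbers have gaps, so each list is a selection from a longer one. The deposited lists hold no read counts, so the depth is unknown and a share counts called peaks.

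Overlap meant at least 1 bp. Genes and start windows came from RefSeq (GRCh38.p14), whose 19126 protein-coding genes on chromosomes 1 to 22 define distal. Each site went to its nearest gene if that lay within 100 kb. Intervals are exact Clopper-Pearson 95% intervals of counting error, and errors after ± are SDs over 2 libraries. Members and other sites were scored on the same libraries. No test was run, since even 2 libraries against 2 taken as unpaired cannot go below a 2-sided p = 0.33 by exact permutation. The overlap code was tested on simulated peaks. Named were the 10 sites with the strongest H3K4me1, the 10 genes with most sites, the 5 domains with most sites, the 10 sites with the strongest H3K27ac among those with H3K27ac in both CHLA10 lists and CHLA10 H3K27me3 in neither, up to 4 genes of each of 17 gene lists, the HOXD13 sites of both lines with the 5 strongest in A673, and the 5 sites each with the strongest A673 H3K4me3 and H3K27ac. The members and lists were chosen with earlier results of these data known. Distance, annotation, overlap, threshold and library alternatives were run. Python 3.11.15, numpy 2.4.6, pandas 2.3.3 and scipy 1.17.1 were used. Sequences of whole sites, exons, introns and motifs at sites were not analysed here. Some genes that the naming rule picks are not reported here.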

Additional observations from a re-analysis of the deposited data

Results flagged for a closer look

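The HOXD13 share of poised sites minus that of sites without H3K27me3 was 1.24 percentage points in A673 and -0.394 in CHLA10, opposite in sign with 1 library per line. The difference between the lines was not tested.

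Chromosome X was outside the rule. There 1 of 373 distal repeated sites (0.27%, 0.0068% to 1.48%) also had A673 H3K27me3 and would have met it.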

How the results depend on the processing

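Of up to 17 alternatives each, including 4 chosen after seeing the data (without the chromosome 21 ribosomal RNA stretch, without 20 to 40 Mb of chromosome 11, sites of 500 to 1500 bp, and 1 site per domain), A673 H3K27ac, CHLA10 H3K27ac and CHLA10 H3K4me1 were lower at poised sites in 17 of 17, CHLA10 H3K27me3 was higher in 17 of 17, and the transcription factor lists held a larger share of poised sites in 15 of 15. H3K4me3 in A673 had no stable order, being higher at poised sites in 8 and lower in 9 of 17. With both A673 H3K27me3 lists required, 574 sites met the rule, with A673 H3K4me3 at 7.23% and CHLA10 H3K27me3 at 36.4%. With the upper 50% of each list, 307 sites met the rule, with A673 H3K4me3 at 2.12% and CHLA10 H3K4me1 at 4.56%. CHLA10 HOXD13 was at 0 of 307, where 3 of 307 (0.977%) is an approximate upper limit and not an exact interval. Of the 307 sites, 6.19% were nearest to a listed transcription factor gene. With sites of 500 to 1500 bp, 472 were left, with A673 H3K27ac at 13.2%, A673 H3K4me3 at 4.34%, CHLA10 H3K27me3 at 27.1%, CHLA10 H3K4me1 at 7.94% and A673 HOXD13 at 5.72%. At over 10 kb from genes CHLA10 H3K27me3 was at 27.7% and CHLA10 H3K4me1 at 8.88%. At over 1 kb they were at 30.85% and 8.15%, and A673 H3K4me3 at 8.57%. With all annotated genes they were at 27.2% and 9.39%. With replicate 1 as the base they were at 28.67% and 7.54%, and without 20 to 40 Mb of chromosome 11 at 28.4% and 8.87%. CHLA10 H3K27me3 was at 30.91% with 50% of the site covered, at 28.72% without the ribosomal RNA stretch, and at 28.68% with 50% overlap between replicates, where A673 H3K27ac was at 18.2%.

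Leaving out 1 library at a time gave 674 to 1808 sites, and A673 H3K27ac at 10.2% to 16.5%, A673 H3K4me3 at 4.58% to 6.60%, CHLA10 H3K27me3 at 28.96% to 33.8%, CHLA10 H3K4me1 at 6.28% to 8.90% and A673 HOXD13 at 5.31% to 8.90%. The 1808 sites come from leaving out A673 H3K4me1 replicate 1, since a site then needs no second list, and there HOXD13 at 5.31% was below the sites without H3K27me3, the only such case of 15. A673 H3K4me3 was also on the other side without A673 H3K27me3 replicate 1 (5.58%) or replicate 2 (6.60%). The same held without A673 H3K4me1 replicate 1 (4.65%) and without A673 H3K4me3 replicate 2 (6.04%). The cause of these changes was not tested. No paired analysis was possible because no model was fitted to which a replicate block could be added, and the replicate numbers name libraries of different marks. Within each library, members minus other sites was -18.4 and -15.6 percentage points for A673 H3K27ac and 26.7 and 27.1 for CHLA10 H3K27me3. Peaks missed for lack of depth cannot be told apart from absent marks.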
